A study of Mus musculus with 13 samples.

Results

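The expression of all named genes was compared between a single pair of arrays: induced cardiomyocyte-like cells (iCMs) made from mouse tail-tip fibroblasts (TTFs) with GMTMM and cultured in FFV, against the same kind of cells cultured in FBS. GMTMM stands for the factors Gata4, Mef2c, Tbx5, Mesp1 and Myocd, and the labels give it for the cells of both media. FFV was medium with FGF2, FGF10 and VEGF and without serum, and FBS was medium with serum. The pair thus differs in both serum and added factors, and their effects cannot be told apart here. The pair was chosen by its sample titles, and 2 of the 13 arrays of the series belong to it. Of 16390 genes named on the arrays, 15527 lay above background on at least 1 array of the pair. There was 1 array a side, so each value is that of 1 sample, no replicate error can be given, and a fold is a difference between these 2 RNA samples. The labels give no time in culture and no sort for GMTMM iCMs.

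TTFs, and iCMs induced in FFV by the pair Mef2c and Tbx5 (MT), served for orientation, and their arrays belong to the same array series as the pair. Hearts of embryonic day 12 (E12) and iCMs induced by GMT, which lacks Mesp1 and Myocd, lie in another array series. The GMT iCMs had been sorted as αMHC-GFP+ cells at 2 or 4 weeks in FFV or FBS. Each of these groups had 1 array too. The values are those the authors deposited, in which a scanner signal is set to 0 at the level of blank spots and scaled so that the median of each array is 25. A probe without a deposited value lay near or below the blanks, or, on some other arrays, had a spot flagged as not good. A value can also lie close to the blanks. In FBS cells the lowest spot with a value was 42.2, against a mean of 41.0 over the blank spots (SD 1.59). In FFV cells it was 41.0, against 39.9 (SD 0.77). On the array of the FFV cells 91.2% of 23473 probes had a value, and on that of the FBS cells 89.4%. The array median stood at 1.62 times the blank level in FFV cells and at 1.54 times in FBS cells, so values of a few units rest on a small excess over the blanks.

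Fibroblasts forced to express cardiac transcription factors switch on parts of the heart muscle programme and switch off parts of the fibroblast programme, usually incompletely and in a minority of cells. Gata4, Mef2c and Tbx5 bind cardiac enhancers together, Mesp1 acts early in cardiac mesoderm, and Myocd is the coactivator of serum response factor that drives smooth muscle and cardiac genes. FGF and VEGF signal through receptor tyrosine kinases and the ERK pathway, whereas serum carries a mixture of growth factors, lipids and proteins.

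At a fold of at least 2, with the higher array above background, 1367 of 15527 genes (8.8%) were higher in FFV and 874 (5.63%) were lower, 14.4% in all. The median difference over all genes was 0.02 on the log2 scale. At least 4-fold apart were 282 higher and 263 lower genes, and at least 8-fold apart 88 higher and 131 lower genes, so the largest differences were more often on the lower side. Of the called genes, 90 higher and 73 lower ones were not above background on the other array. Of the calls 61.0% were higher in FFV. With the local surround of each spot subtracted, 2306 genes were higher and 514 lower, and 81.8% of the calls were higher.

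The 10 named genes with the largest positive difference were Lcn2, A2m, Comp, Slc10a6, Dll3, Omd, Myl7, Rtl3, C3 and Ogn. They include secreted proteins of the acute phase response (Lcn2, A2m, C3), proteins of cartilage and bone matrix (Comp, Omd, Ogn) and the atrial myosin light chain Myl7. A2m, which encodes the protease inhibitor alpha-2-macroglobulin, had 1168 in FFV, 14.0 in FBS and 40.6 in TTFs, and was 83.4-fold higher in FFV, or 49.1-fold with a pseudocount of 10. Dll3, a Notch ligand, had 305 in FFV, 7.11 in FBS and 7.22 in TTFs. Slc10a6, a carrier of sulphated steroids, had 458 in FFV, 8.90 in FBS and 26.6 in TTFs. Each of these 3 genes was thus at or below the level of TTFs in FBS and far above it in FFV. The 10 with the largest negative difference were C1qb, Ms4a7, Ctss, C1qa, C1qc, C3ar1, Ms4a6d, Hal, Myo1f and Tyrobp. Most of these are textbook genes of macrophages and other myeloid cells. Ms4a7, a membrane protein of macrophages, had 2.05 in FFV, 591 in FBS and 578 in TTFs and was 288-fold lower in FFV, or 49.8-fold with a pseudocount of 10 added to both values. C3ar1, the receptor of the complement fragment C3a, had 0.970 in FFV, 145 in FBS and 169.9 in TTFs.

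**Figure D1:**
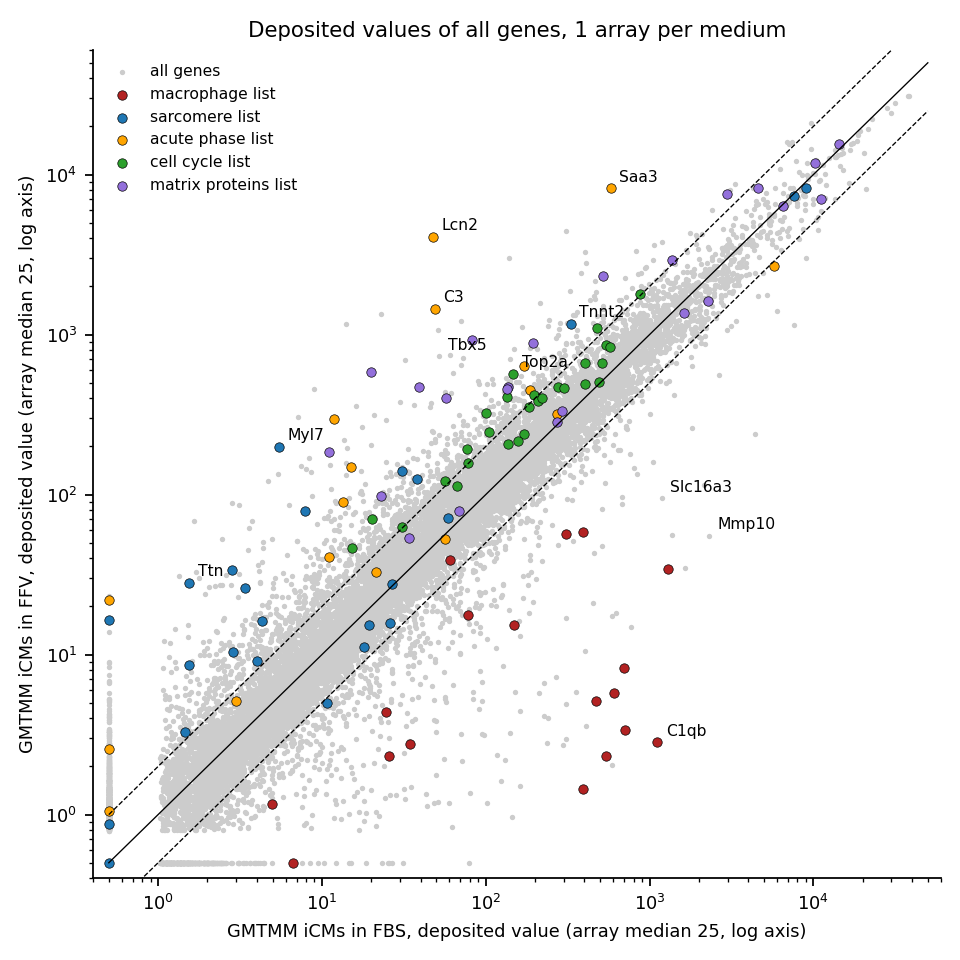
Deposited value of each gene in GMTMM iCMs in FFV (vertical, log axis) against that in FBS (horizontal, log axis), 1 array each, where 25 is the median of each array. The solid line marks equal values, dashed lines a 2-fold difference, points drawn at 0.5 have no deposited value, and colours mark 5 gene lists. Of 18 macrophage markers 17 lie below the lines, all but Csf1r, and acute phase genes, such as Lcn2 at 4095 in FFV and 47.6 in FBS, lie mostly above them.

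Of 24 genes measured in the sarcomere list, 14 were at least 2-fold higher in FFV. Of the others 1 was at least 2-fold lower and 9 lay within 2-fold. The median difference of the 24 was 1.45, against 0.02 over all genes. The list holds mainly proteins of the contractile apparatus of striated muscle, and also Casq2, which the calcium handling list counts too. Myl7 had 198 in FFV, 5.46 in FBS, 4.72 in TTFs and 22318 in E12 heart. Ttn, the giant protein that spans the sarcomere, had 28.1 in FFV, 1.54 in FBS, no value in TTFs and 3138 in E12 heart. Myh6, the adult cardiac myosin heavy chain whose promoter drives the αMHC reporter, had 16.6 in FFV, no value in FBS, no value in TTFs and 3917 in E12 heart, so it was at least 16.0-fold higher in FFV, or 2.66-fold with a pseudocount of 10. In the other array series of the heart, all 3 genes stood far above the level reached in FFV.

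Tnnt2, cardiac troponin T, showed another pattern. It had 1169.6 in FFV, 329 in FBS, 1.02 in TTFs and 18633 in E12 heart, which placed both media far above the fibroblasts, with a further 3.55-fold between them. Smpx, a small protein of the costamere, had 33.7 in FFV and 2.83 in FBS with no value in TTFs. Myom1, an M-band protein, had 79.4 in FFV, 7.90 in FBS and 3.99 in TTFs, and its relative Myom2 had 26.2 in FFV, 3.39 in FBS and 2.57 in TTFs. Actn2, which anchors thin filaments at the Z disc, had 16.1 in FFV, 4.33 in FBS, 2.69 in TTFs and 3245 in E12 heart. The calcium-buffering Casq2 and the atrial and embryonic light chain Myl4 were 5.62-fold and 4.49-fold higher in FFV, and Casq2 1.62-fold with a pseudocount of 10.

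Other sarcomere genes were closer together. Myl2, the ventricular light chain, had 9.18 in FFV, 4.00 in FBS, 2.61 in TTFs and 18105 in E12 heart. Myh7, the slow myosin heavy chain, had 3.27 in FFV and 1.47 in FBS. Mybpc3, myosin-binding protein C, ran the other way with 11.1 in FFV and 18.1 in FBS, as did the Z-disc protein Csrp3 with 4.96 in FFV and 10.8 in FBS, the 1 lower call of the list. Tpm1 and Myl3 had high values in every sample, TTFs included: Tpm1 had 7331 in FFV, 7594 in FBS and 7453 in TTFs, and Myl3 had 8264 in FFV, 9048 in FBS and 3809 in TTFs. In E12 heart, in another array series, Tpm1 had 1043 and Myl3 had 3679, both below TTFs. Since these 2 genes make up most of it, the summed value of the list was nearly the same in FFV (17606) and FBS (17235), although 14 members were higher. Of the 14 higher members 6 had values below the array median of 25 in both media. The list's median was 0.23 with the scanner values corrected by normexp and an offset of 50, 0.56 with a pseudocount of 10 and 0.64 with the local surround subtracted.

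Of 14 measured calcium handling genes 2 were higher and none lower, with a median of 0.18, where 14.4% of all genes were called. These were Casq2, which the sarcomere list counts too, and Jph2. Jph2 couples the sarcoplasmic reticulum to the cell membrane and had 5.21 in FFV, 1.54 in FBS and 4.76 in TTFs. Ryr2, the calcium release channel of the heart, had no value on either array, against 60.2 in E12 heart. Atp2a2, the calcium pump of the sarcoplasmic reticulum, had 239 in FFV, 199.6 in FBS, 251 in TTFs and 2107 in E12 heart. Of 15 channel and junction genes 2 were higher and 2 lower. The potassium channel Kcnd2 had 6.18 in FFV and 1.46 in FBS, and Kcnq1 had 12.1 in FFV and 3.89 in FBS. On the lower side Kcnh2 had 24.3 in FFV and 70.2 in FBS. Gja1, the main gap junction protein of heart and fibroblasts, had 2175 in FFV, 2976 in FBS and 2033 in TTFs. Its difference of −0.45 was below 2-fold and became 0.71 with the local surround subtracted.

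Among natriuretic peptide genes 3 of 6 were higher and 1 lower. Nppa, the atrial peptide and an embryonic heart marker, had 109 in FFV, 11.4 in FBS, 5.19 in TTFs and 6609 in E12 heart. Corin, the protease that activates it, had 8.30 in FFV and 1.06 in FBS, and the clearance receptor Npr3 had 10.9 in FFV and 1.98 in FBS. Nppb, the B-type peptide, did not follow with 37.3 in FFV and 58.9 in FBS, and Nppc, the C-type peptide, was 4.61-fold lower with 20.4 in FFV and 94.2 in FBS. Nppc was lower in FFV but still above the 6.35 of TTFs. The median of these 6 genes was 1.17, and 0.14 to 0.38 with the 3 alternatives that also lowered the sarcomere median.

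Of the 4 transduced factors measured, 2 were at least 2-fold higher in FFV and 1 was at least 2-fold lower. Tbx5 had 731 in FFV, 51.8 in FBS, 3.18 in TTFs and 63.7 in E12 heart, which was 14.1-fold higher in FFV. Myocd had 91.0 in FFV, 12.1 in FBS and 2.18 in TTFs and was 7.54-fold higher, or 4.58-fold with a pseudocount of 10. Gata4 was the reverse: it had 151 in FFV, 386 in FBS and 1.68 in TTFs, 2.56-fold lower in FFV. Mesp1 had 1.96 in FFV and 3.65 in FBS and no value in TTFs. GMT iCMs, made without it, had 1.12 in FFV and 2.36 in FBS at 2 weeks and 1.27 in FFV and 2.24 in FBS at 4 weeks, in another array series, and in all of these cells the value of Mesp1 was close to the blanks. As values, Tbx5 and Myocd were thus higher in FFV and Gata4 was higher in FBS. Whether the probes read transcripts of the vectors is not stated in the sources used. Mef2c, a member of GMTMM, is not named on the arrays and was not analysed here.

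Of 18 cardiac regulators 7 were higher and 1 lower, where 8.8% of all genes were higher and 5.63% lower. The median was 0.26. Gata6, a relative of Gata4, had 68.5 in FFV, 11.4 in FBS, 42.6 in TTFs and 1081 in E12 heart. Foxc1 had 107 in FFV, 25.6 in FBS and 35.8 in TTFs, and Zfpm2, the cofactor of Gata factors, had 72.2 in FFV, 18.6 in FBS, 11.5 in TTFs and 85.5 in E12 heart. Hand2, a regulator of the right ventricle, had 3.15 in FFV and no value in FBS, against 43.9 in E12 heart. Hopx, a cofactor without DNA binding, had 488 in FFV, 215 in FBS, 73.2 in TTFs and 1763 in E12 heart. The lower gene was Tbx3, a repressor that marks the conduction system, with 256 in FFV, 729 in FBS and 253 in TTFs. Isl1 had no value on either array, Tbx20 had 1.29 in FFV and no value in FBS against 395 in E12 heart, and Ankrd1 had the same level in both media with 1139 in FFV and 1124 in FBS.

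**Figure D2:**
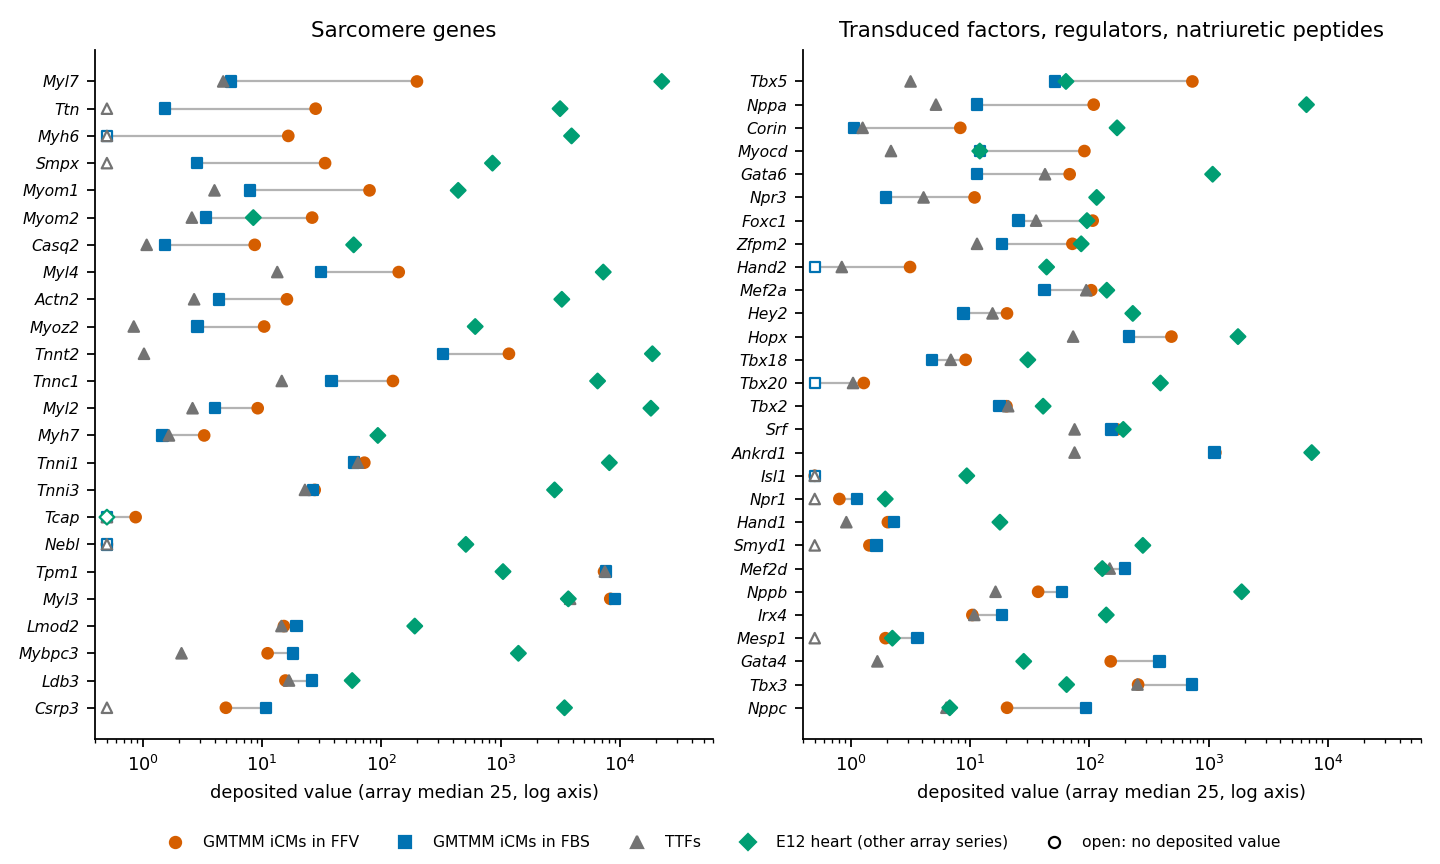
Deposited values (horizontal, log axis, array median 25) of sarcomere genes (left) and of transduced factors, cardiac regulators and natriuretic peptide genes (right) in GMTMM iCMs in FFV and FBS, TTFs and E12 heart, 1 array each, ordered by the FFV minus FBS difference. Open symbols at 0.5 have no deposited value, and the heart array belongs to another array series. Myl7 stands at 198 in FFV, 5.46 in FBS and 22318 in E12 heart, while Gata4 and Tbx3 stand higher in FBS.

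Of 11 smooth muscle genes, classical targets of myocardin, 6 were at least 2-fold higher in FFV, 5 lay within 2-fold and none was lower, with a median of 1.04. Myh11, the smooth muscle myosin heavy chain, had 61.6 in FFV, 3.61 in FBS and 4.38 in TTFs, a 17.1-fold difference, or 5.26-fold with a pseudocount of 10. Lmod1, an actin nucleator of smooth muscle, had 40.5 in FFV, 8.44 in FBS and 4.98 in TTFs. Cnn1, calponin, had 112 in FFV, 40.0 in FBS and 10.3 in TTFs. Acta2, smooth muscle actin and also a marker of myofibroblasts, had 16034 in FFV, 7404 in FBS and 6491 in TTFs, while Tagln had 3151 in FFV and 3011 in FBS. Of 13 skeletal muscle genes 2 were higher and 2 lower, where 14.4% of all genes were called. Myl1, a myosin light chain of fast skeletal muscle that the embryonic heart also expresses, had 1214 in FFV, 71.0 in FBS, 2.08 in TTFs and 1079 in E12 heart. Acta1, skeletal actin, ran the other way with 12.1 in FFV and 37.9 in FBS. Myod1 and Myog, the factors that set skeletal muscle fate, had 30.3 in FFV and 45.8 in FBS and 2.63 in FFV and 2.64 in FBS.

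Of 23 matrix protein genes 12 were at least 2-fold higher in FFV, 11 lay within 2-fold and none was lower, with a median of 1.11 that became 1.91 with the local surround subtracted. Ogn, a small leucine-rich proteoglycan, had 583 in FFV, 19.9 in FBS and 500.1 in TTFs. Fmod, another of that family that organises collagen fibrils, had 184 in FFV, 11.1 in FBS and 31.0 in TTFs. Aspn had 469 in FFV, 39.3 in FBS and 1878 in TTFs, and Prelp had 919 in FFV, 82.1 in FBS and 289 in TTFs. Postn, periostin, a marker of activated fibroblasts, had 401 in FFV, 57.1 in FBS and 620.2 in TTFs. In Ogn, Aspn and Postn the FBS cells lay far below TTFs, and the FFV cells lay near or below TTFs, whereas Fmod and Prelp exceeded TTFs in FFV.

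Of 16 collagen genes 6 were higher, 10 lay within 2-fold and none was lower, with a median of 0.56. Col11a1 had 579 in FFV, 62.8 in FBS and 150.0 in TTFs, and Col6a3 had 123 in FFV, 36.7 in FBS and 46.1 in TTFs. The basement membrane collagens Col4a1 and Col4a2 were 2.25-fold and 2.09-fold higher. The main fibrillar collagens lay within 2-fold: Col1a1 had 1103 in FFV, 893 in FBS and 2259.7 in TTFs, and Col3a1 had 9978 in FFV, 8570.0 in FBS and 15022 in TTFs, both lower in either medium than in TTFs. Of 14 cartilage and tendon genes 6 were higher and none lower. Comp, cartilage oligomeric matrix protein, had 1344 in FFV, 23.0 in FBS and 13.9 in TTFs and was 58.4-fold higher in FFV. Col2a1, the collagen of cartilage, had 292 in FFV, 24.8 in FBS and 15.2 in TTFs. Thbs4, a tendon thrombospondin, had 3334 in FFV, 832 in FBS and 1241 in TTFs. Sox9, the master regulator of cartilage, had 101 in FFV and 72.2 in FBS, and the aggrecan gene Acan had 1.12 in FFV and 1.39 in FBS, so the differences did not extend to all cartilage genes.

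Fibroblast surface and lineage markers showed no common direction, with 1 of 13 higher, 1 lower and a median of 0.00, or 0.66 with the local surround subtracted. Thy1, a surface marker of fibroblasts, was 4.29-fold lower in FFV with 1397 in FFV, 5986 in FBS and 3510.4 in TTFs. Pdgfra, the receptor of fibroblast progenitors, was 2.17-fold higher with 1026 in FFV, 473 in FBS and 763 in TTFs. Vim, vimentin, had 19298 in FFV, 21673 in FBS and 19884 in TTFs. Tcf21, a marker of cardiac fibroblasts, had no value on either array or in TTFs. Of 21 matrix protease and inhibitor genes 5 were higher and 4 lower, and 3 of the lower ones, all matrix metalloproteases, had the largest differences. Mmp10, stromelysin 2, had 55.4 in FFV, 2301 in FBS and 383 in TTFs, and was 41.6-fold lower. Mmp13, collagenase 3, had 240.4 in FFV, 4411 in FBS and 624 in TTFs. Mmp12, the macrophage elastase, had 3.99 in FFV, 239 in FBS and 87.8 in TTFs. The general inhibitor Timp1, the other lower gene, was 2.37-fold lower with 4516 in FFV, 10706 in FBS and 1751 in TTFs. Of the higher ones, Adamts5 was 4.58-fold higher with 316 in FFV, 69.0 in FBS and 937 in TTFs and Adamts1 3.79-fold higher with 1331 in FFV, 352 in FBS and 1843 in TTFs.

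Of 21 genes of TGF-beta and BMP signalling 8 were higher and 1 lower, with a median of 0.69. The higher ones include binding proteins of latent TGF-beta (Ltbp2 with 134 in FFV, 28.4 in FBS and 45.9 in TTFs, and Ltbp1), the targets Ccn2 with 3614 in FFV, 1059 in FBS and 1762 in TTFs and Id3 with 2598 in FFV, 939.7 in FBS and 885 in TTFs, and the ligand Bmp4 with 353 in FFV, 128 in FBS and 658 in TTFs. The lower one was Tgfbi, a matrix protein induced by TGF-beta, with 62.7 in FFV, 205 in FBS and 60.1 in TTFs. Tgfb1 itself had 23.0 in FFV and 39.2 in FBS, within 2-fold.

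Of the 38 gene lists, the markers of macrophages had the median farthest from 0. Of 18 measured, 17 were at least 2-fold lower in FFV and none higher, with a median of −3.55 that lay between −1.94 and −2.74 with normexp, a pseudocount of 10 or the surround subtracted. C1qb, a chain of complement C1q that tissue macrophages make, had 2.83 in FFV, 1117 in FBS and 639 in TTFs, and was 394-fold lower in FFV, or 87.8-fold with a pseudocount of 10, since the FFV value lies near the blanks. C1qa had 2.32 in FFV, 544 in FBS and 530.0 in TTFs. Ctss, the lysosomal protease cathepsin S, had 1.44 in FFV, 392 in FBS and 285 in TTFs. Tyrobp, the signalling adaptor of myeloid receptors, had 5.75 in FFV, 603 in FBS and 321 in TTFs, and Fcer1g, the gamma chain of Fc receptors, had 34.4 in FFV, 1290.1 in FBS and 1312 in TTFs. In these 5 genes the FBS cells lay close to or above TTFs, and the FFV cells lay far below both.

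The leukocyte antigen Ptprc had 4.36 in FFV, 24.7 in FBS and 31.5 in TTFs, and the macrophage marker Adgre1 had 1.16 in FFV, 4.98 in FBS and 6.46 in TTFs. Itgam had no value in FFV, 6.63 in FBS and 9.53 in TTFs. Csf1r, the receptor of macrophage colony-stimulating factor, was the 1 marker within 2-fold, with 39.0 in FFV, 60.3 in FBS and 54.9 in TTFs. The summed value of the 18 markers was 261 in FFV, 6907 in FBS, 4679 in TTFs and 229 in MT iCMs in FFV. Thus 17 of 18 had a value in FFV cells but mostly a low one, and all 18 had one in FBS cells and in TTFs. Since no sort is given for these cells, fewer cells of a type and less RNA per cell cannot be told apart. The part of such cells in the differences of other genes was not tested, and their summed value is given here as it moves with the medium.

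Of 29 chemokine and interleukin genes 12 were lower in FFV, 4 were higher and 13 lay within 2-fold, beside the summed macrophage markers of 261 in FFV and 6907 in FBS. Ccl3, a chemokine of macrophages, had 2.20 in FFV, 131 in FBS and 102 in TTFs. Ccl9 had 17.6 in FFV, 590.1 in FBS and 6.68 in TTFs, Cxcl2 had 43.3 in FFV, 461 in FBS and 7.19 in TTFs, and Ccl4 had 1.45 in FFV, 31.7 in FBS and 15.5 in TTFs. Tnf had no value in FFV, 31.2 in FBS and 14.4 in TTFs, so it was at least 30.2-fold lower in FFV, or 4.12-fold with a pseudocount of 10. Of the higher genes, Il6 had 205 in FFV, 20.0 in FBS and 5.67 in TTFs, a 10.3-fold difference, and Cxcl12, a chemokine of stromal cells, had 708 in FFV, 141 in FBS and 547 in TTFs. Ccl2 and Cxcl1, which fibroblasts secrete on stimulation, stood above TTFs in both media, with 6529.7 in FFV, 5088 in FBS and 2337 in TTFs for Ccl2 and 4797 in FFV, 3663 in FBS and 403 in TTFs for Cxcl1. From the lists of fatty acid oxidation and sterol efflux, the fatty acid receptor Cd36 had 2.18 in FFV, 71.2 in FBS and 5.66 in TTFs, and the sterol exporter Abcg1 had 27.2 in FFV, 181 in FBS and 118 in TTFs. Ccl9, Cxcl2 and Cd36 were low in TTFs, unlike C1qa, C1qb, Ctss and Tyrobp. The macrophage markers Adgre1 and Itgam were low in TTFs too.

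Of 17 acute phase and complement genes, secreted proteins of innate defence that many tissues induce under inflammatory signals, 11 were higher in FFV and 1 lower. The median was 1.87, and 0.66 with normexp or 1.26 with a pseudocount of 10. Lcn2, a protein that withholds bacterial siderophores, had 4095 in FFV, 47.6 in FBS and 43.9 in TTFs, 86.0-fold higher. Saa3, the serum amyloid A protein of peripheral tissue, had 8229 in FFV, 578 in FBS and 12.7 in TTFs. C3, the central complement component, had 1456 in FFV, 48.8 in FBS and 13.9 in TTFs, and Cfb, a factor of the alternative complement pathway, had 296 in FFV, 11.8 in FBS and 18.6 in TTFs. Lcn2 and Cfb lay near or below TTFs in FBS cells, whereas C3 and Saa3 were above TTFs in both media.

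Hp, haptoglobin, had 149 in FFV, 15.0 in FBS and 8.25 in TTFs. Steap4, a metalloreductase, had a value of 21.9 in FFV and none in FBS or TTFs. Serpina3n, a protease inhibitor of the same response, went the other way with 2681 in FFV, 5724 in FBS and 61.9 in TTFs. Orm1 had 2.57 in FFV and no value in FBS. Saa2, Saa3, Serpina3g, Serpina3n and Orm1 belong to families with close copies, whose signals probes can share. In MT iCMs, also in FFV, Lcn2 had 273, C3 had 211 and Saa3 had 1904.

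**Figure D3:**
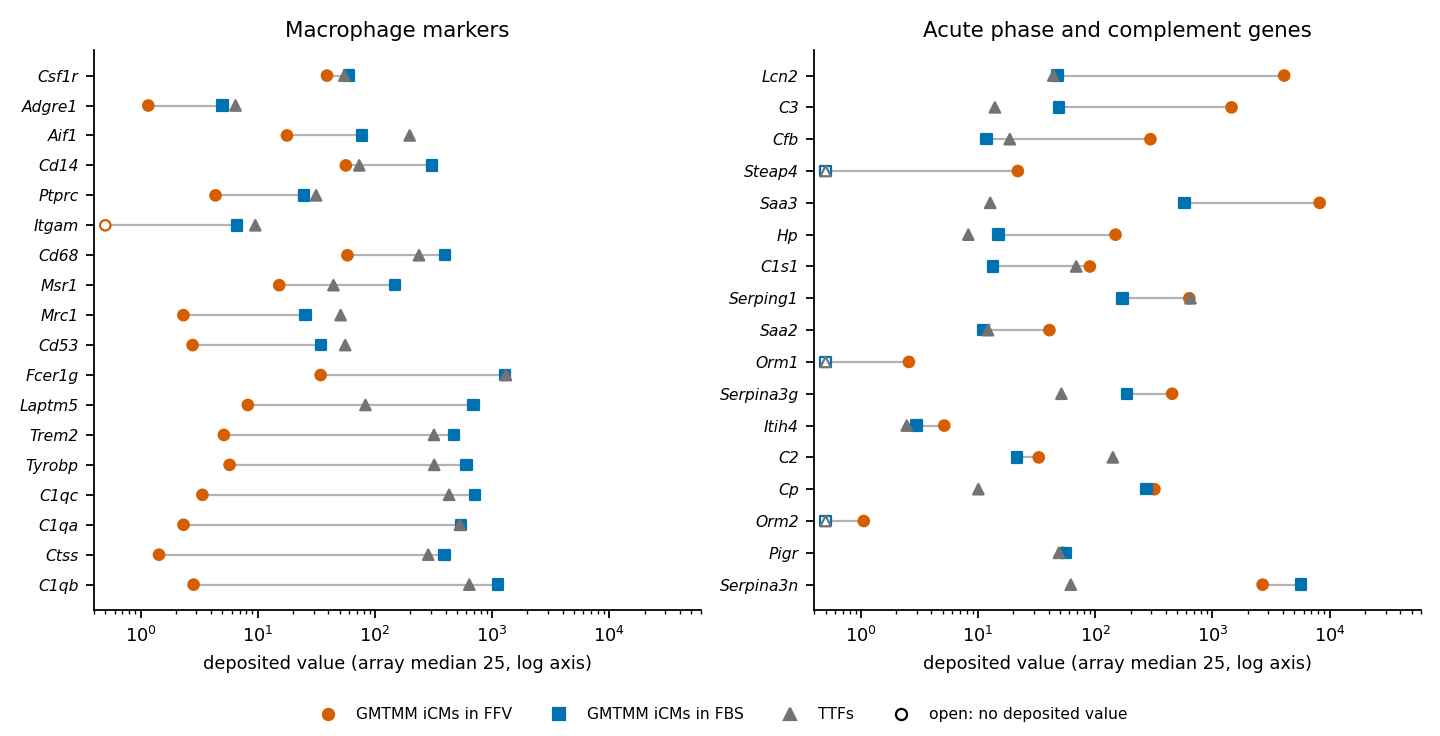
Deposited values (horizontal, log axis, array median 25) of macrophage markers (left) and of acute phase and complement genes (right) in GMTMM iCMs in FFV and FBS and in TTFs, 1 array each, ordered by the FFV minus FBS difference. Open symbols at 0.5 have no deposited value. C1qb stands at 2.83 in FFV, 1117 in FBS and 639 in TTFs, and Lcn2 at 4095 in FFV, 47.6 in FBS and 43.9 in TTFs.

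Promoters of acute phase genes are shown because 11 of the 17 were higher in FFV. C/EBP factors and NF-kB are known regulators of the acute phase response. In windows of 250 bases before to 50 after the start of each gene, from RefSeq on GRCm38.p6, GCAAT, a core of C/EBP sites, was searched on both strands, as was the NF-kB consensus. Only the first window listed for each gene was counted, and of the 11 higher genes 7 had a window. GCAAT lay in 4 of these (C1s1, Lcn2, Saa2 and Saa3), against 26.5% of all genes with a window, and the NF-kB consensus in 2 (Serpina3g and Steap4), against 4.35% of all genes. A match of a few letters is a description and does not show that a factor binds. Lcn2 lies at chr2:32387690-32387989 on the minus strand, and Saa3 at chr7:46715627-46715926 on the minus strand. Capitals mark GCAAT or, where the match is on the other strand, ATTGC. In Lcn2 it begins 139 bases before the start, and in Saa3 it begins 170 and 79 bases before.
Lcn2: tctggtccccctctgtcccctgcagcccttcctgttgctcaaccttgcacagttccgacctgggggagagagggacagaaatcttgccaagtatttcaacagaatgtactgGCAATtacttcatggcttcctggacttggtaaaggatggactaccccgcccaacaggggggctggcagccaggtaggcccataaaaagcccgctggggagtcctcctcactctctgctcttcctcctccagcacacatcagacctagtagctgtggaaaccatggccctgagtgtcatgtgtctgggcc
Saa3: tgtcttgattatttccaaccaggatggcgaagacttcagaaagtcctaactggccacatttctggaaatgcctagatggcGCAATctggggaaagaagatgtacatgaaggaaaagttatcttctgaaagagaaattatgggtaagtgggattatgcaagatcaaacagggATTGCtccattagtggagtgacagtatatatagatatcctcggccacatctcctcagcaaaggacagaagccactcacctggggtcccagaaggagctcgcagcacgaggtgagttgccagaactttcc

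The list of cell cycle genes covers DNA replication and mitosis. Of 28 measured, 13 were at least 2-fold higher in FFV, 15 lay within 2-fold and none was lower, and all 28 differences were positive, with a median of 0.91. Top2a, the topoisomerase of dividing cells, had 569 in FFV, 148 in FBS and 45.3 in TTFs. Mki67, the proliferation marker, had 419.8 in FFV, 196 in FBS and 19.1 in TTFs. The mitotic kinase gene Bub1 had 70.0 in FFV, 20.3 in FBS and 6.56 in TTFs, Ccna2, cyclin A, had 325 in FFV, 99.9 in FBS and 28.0 in TTFs, and Rrm2, a subunit of ribonucleotide reductase, had 407 in FFV, 135 in FBS and 91.7 in TTFs. In these genes the FBS cells already lay above TTFs, and the FFV cells lay above both. Of 14 p53 and senescence genes 4 were higher and none lower, among them Perp with 437 in FFV, 129.6 in FBS and 214 in TTFs and Btg2 with 1175 in FFV, 449 in FBS and 219 in TTFs. The p53 target Cdkn1a, an inhibitor of the cycle, had 2341 in FFV, 2314 in FBS and 2195 in TTFs.

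Immediate early genes, transcription factors induced within minutes by growth factors and by stress, were higher in 9 of 18 cases and lower in none, with a median of 0.94. Nr4a1, an orphan nuclear receptor, had 2428 in FFV, 382 in FBS and 215 in TTFs, and its relative Nr4a2 had 826 in FFV, 186 in FBS and 32.5 in TTFs. Junb had 1230.2 in FFV, 244 in FBS and 174 in TTFs, and Egr2 had 222 in FFV, 49.1 in FBS and 55.1 in TTFs. Fos had 8794 in FFV, 3316 in FBS and 1048 in TTFs, while Jun had 4387 in FFV, 4771 in FBS and 1346 in TTFs. All 6 of these stood above TTFs in FFV, and Junb and Egr2 stood close to TTFs in FBS.

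FFV supplies FGF2 and FGF10, and genes of FGF ligands, receptors and ERK feedback were called in both directions. Of 19 measured 5 were higher and 3 lower, with a median of 0.07, where 14.4% of all genes were called. The feedback inhibitors Spry1 and Spry2 had 75.8 in FFV, 25.1 in FBS and 205 in TTFs for Spry1 and 42.5 in FFV, 15.0 in FBS and 10.5 in TTFs for Spry2. Dusp6, the phosphatase that ERK induces to limit itself, had 606 in FFV, 437 in FBS and 670.5 in TTFs, and Etv4 had 75.1 in FFV and 92.5 in FBS, both within 2-fold. Dusp4, another such phosphatase, was 3.05-fold lower with 25.2 in FFV and 76.7 in FBS. The receptor Fgfr2, which binds FGF10 in one of its forms, had 39.4 in FFV, 10.1 in FBS and 47.9 in TTFs. Endogenous Fgf10 was 2.10-fold lower, with 12.1 in FFV, 25.5 in FBS and 29.4 in TTFs.

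Endothelial genes, which VEGF acts on, showed 2 higher and 2 lower of 18, where 14.4% of all genes were called. Their median was 0.00. Flt1, a VEGF receptor that fibroblasts can express, had 904 in FFV, 377 in FBS, 537 in TTFs and 463 in E12 heart. Kdr, the main VEGF receptor of endothelium, had 19.7 in FFV, 14.9 in FBS, 9.96 in TTFs and 221 in E12 heart. Tek had 8.39 in FFV, no value in FBS and 10.4 in TTFs. The lower genes were Flt4, with 1.31 in FFV, 7.81 in FBS and 3.53 in TTFs, and Sox17, with 1.55 in FFV and 3.83 in FBS. The defining endothelial markers Pecam1 and Cldn5 were at or below background in both media, with 93.9 and 52.9 in E12 heart. Of 14 SRF and YAP target genes 3 were higher (Amotl2, Ccn1 and Ccn2) and none lower.

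Among 22 genes of glycolysis none was higher and 3 were lower, where 14.4% of all genes were called and 5.63% were lower. The median of −0.46 stayed negative under all alternatives, but was only −0.11 with the local surround subtracted. Slc16a3, the lactate exporter Mct4 and a target of hypoxia-inducible factor, had 94.9 in FFV, 1184 in FBS, 223 in TTFs and 718 in E12 heart, 12.5-fold lower in FFV. Slc2a1, the glucose carrier Glut1, had 511 in FFV, 1165 in FBS and 447 in TTFs. Aldoa, aldolase, had 5212 in FFV, 10443 in FBS and 5328 in TTFs. Hk2, the inducible hexokinase, had 1106 in FFV, 1911 in FBS and 335 in TTFs and was below 2-fold. In Slc16a3 the FFV cells lay below TTFs and the FBS cells far above, whereas Hk2 was above TTFs in both media.

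Of 14 hypoxia genes 3 were lower and 2 higher, with a median of −0.69. Egln3, an oxygen-sensing hydroxylase, had 25.8 in FFV, 110.0 in FBS and 15.3 in TTFs, Ankrd37 had 10.9 in FFV, 34.7 in FBS and 10.9 in TTFs, and Ndrg1 had 94.0 in FFV, 193 in FBS and 65.9 in TTFs. On the other side, Adm, the vasoactive peptide adrenomedullin, had 2247 in FFV, 711 in FBS and 2937 in TTFs, and Ddit4 had 52.0 in FFV, 23.9 in FBS and 185 in TTFs. The summed macrophage markers, 261 in FFV and 6907 in FBS, moved in the same direction as Slc16a3 and the lower hypoxia genes, and their part in these differences was not tested.

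The core of the hypoxia response element, ACGTG, was searched on both strands of the promoter windows, and it is also part of the E box CACGTG. It lay in the windows of 19.7% of all genes. Of the 3 lower glycolysis genes it lay in 2, Slc16a3 and Slc2a1, and in both lower hypoxia genes that had a window, Ankrd37 and Egln3. Aldoa, the other lower glycolysis gene, has 3 windows, of which only the first listed was counted. The 2 glycolysis promoters are shown as examples, Slc16a3 at chr11:120948817-120949116 and Slc2a1 at chr4:119108495-119108794, both on the plus strand of GRCm38.p6. Capitals mark ACGTG, which begins 27 and 14 bases before the start in Slc16a3 and 36 bases before it in Slc2a1. Such a match, too, says nothing of binding.
Slc16a3: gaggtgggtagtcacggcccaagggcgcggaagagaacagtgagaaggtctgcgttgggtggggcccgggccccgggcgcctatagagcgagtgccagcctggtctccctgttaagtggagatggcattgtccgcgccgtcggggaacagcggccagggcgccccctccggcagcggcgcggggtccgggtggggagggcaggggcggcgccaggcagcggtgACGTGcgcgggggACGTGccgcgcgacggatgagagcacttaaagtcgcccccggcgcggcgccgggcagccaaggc
Slc2a1: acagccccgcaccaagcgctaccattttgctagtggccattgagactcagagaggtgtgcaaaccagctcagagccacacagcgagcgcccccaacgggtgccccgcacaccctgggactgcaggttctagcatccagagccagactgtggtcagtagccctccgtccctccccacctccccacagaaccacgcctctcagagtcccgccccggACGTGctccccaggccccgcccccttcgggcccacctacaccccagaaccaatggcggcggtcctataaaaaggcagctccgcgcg

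Of 30 genes of oxidative phosphorylation none was higher and 1 lower, with a median of 0.25. The lower one was Cox6a2, the subunit of striated muscle, with 3.12 in FFV, 8.77 in FBS, 10.8 in TTFs and 626 in E12 heart. Of 22 fatty acid oxidation genes 4 were higher and 2 lower, with a median of 0.38. Pdk4, the kinase that spares pyruvate when fat is burnt, had 101 in FFV, 17.7 in FBS and 36.0 in TTFs. Hadh, Etfa and Etfdh, enzymes of the beta-oxidation pathway, were 2.11-fold, 2.13-fold and 2.38-fold higher. Fabp3, the fatty acid binding protein of heart, was 3.15-fold lower with 141 in FFV, 444 in FBS, 629.7 in TTFs and 3073 in E12 heart.

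Of 14 genes of sterol synthesis, which cells induce when sterols are short, 7 were at least 2-fold higher in FFV, 7 lay within 2-fold and none was lower, with a median of 1.02. Idi1, isopentenyl-diphosphate isomerase, had 88.6 in FFV, 12.2 in FBS and 40.5 in TTFs. Insig1, the sensor protein of the pathway, had 52.2 in FFV, 17.5 in FBS and 26.6 in TTFs, and Sqle, squalene epoxidase, had 559 in FFV, 254 in FBS and 500.1 in TTFs. Cyp51 and Srebf2 were 2.34-fold and 2.09-fold higher. In Idi1 the FBS cells lay below TTFs and the FFV cells above.

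Of 20 Wnt pathway genes 7 were higher and 2 lower, where 8.8% of all genes were higher and 5.63% lower. Wnt5b had 139 in FFV, 26.1 in FBS and 20.3 in TTFs, the secreted Wnt inhibitors Sfrp2 and Frzb had 1138 in FFV, 239.6 in FBS and 1651 in TTFs for Sfrp2 and 21.4 in FFV, 4.76 in FBS and 10.6 in TTFs for Frzb, and the feedback inhibitor Nkd1 had 119.7 in FFV, 31.3 in FBS and 50.2 in TTFs. Axin2, a general target of the pathway, had 1.61 in FFV and 2.39 in FBS. Of 11 IGF genes 3 were higher and 2 lower. The binding protein Igfbp2 had 4419.6 in FFV, 308 in FBS and 2637 in TTFs, 14.3-fold higher, and Igf1 was 2.63-fold lower with 69.9 in FFV, 184 in FBS and 293 in TTFs. Of 24 interferon genes 4 were higher and 1 lower. Among the higher ones was Gbp2 with 92.8 in FFV, 24.0 in FBS and 22.3 in TTFs. The lower one was Oas1a with 21.2 in FFV, 69.6 in FBS and 25.9 in TTFs. No gene of the list of 14 unfolded protein and amino acid stress genes was 2-fold apart.

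Of markers of further cell types, neural and glial genes were lower in 4 of 8 cases and higher in 2. Sox10, a marker of glia and melanocytes, had 48.5 in FFV, 278 in FBS and 79.8 in TTFs, Nes, nestin, had 21.3 in FFV, 194 in FBS and 45.1 in TTFs, and S100b had 267 in FFV, 719 in FBS and 139 in TTFs. The higher ones were Scg2, secretogranin II, which was 18.2-fold higher (5.69-fold with a pseudocount of 10) with 68.2 in FFV, 3.75 in FBS and 1.26 in TTFs, and the adhesion molecule Ncam1, 2.10-fold higher with 149 in FFV, 70.8 in FBS and 129 in TTFs. Epicardial genes were lower in 3 of 8 cases, with 8.96 in FFV, 38.9 in FBS and 9.83 in TTFs for Msln and 10.2 in FFV, 36.6 in FBS and 50.7 in TTFs for Bnc1. Of 8 epidermal genes 2 were higher, Perp and the basal cell factor Trp63, which was 5.52-fold higher, or 1.69-fold with a pseudocount of 10. Of 9 adipocyte genes 2 were higher and 1 lower, and Adipoq had no value in either medium. Of 12 sterol efflux genes 3 were higher and 2 lower, and of 4 lymphoid and erythroid genes none was 2-fold apart. Over all genes 8.8% were higher, 5.63% were lower and 14.4% were called.

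**Figure D4:**
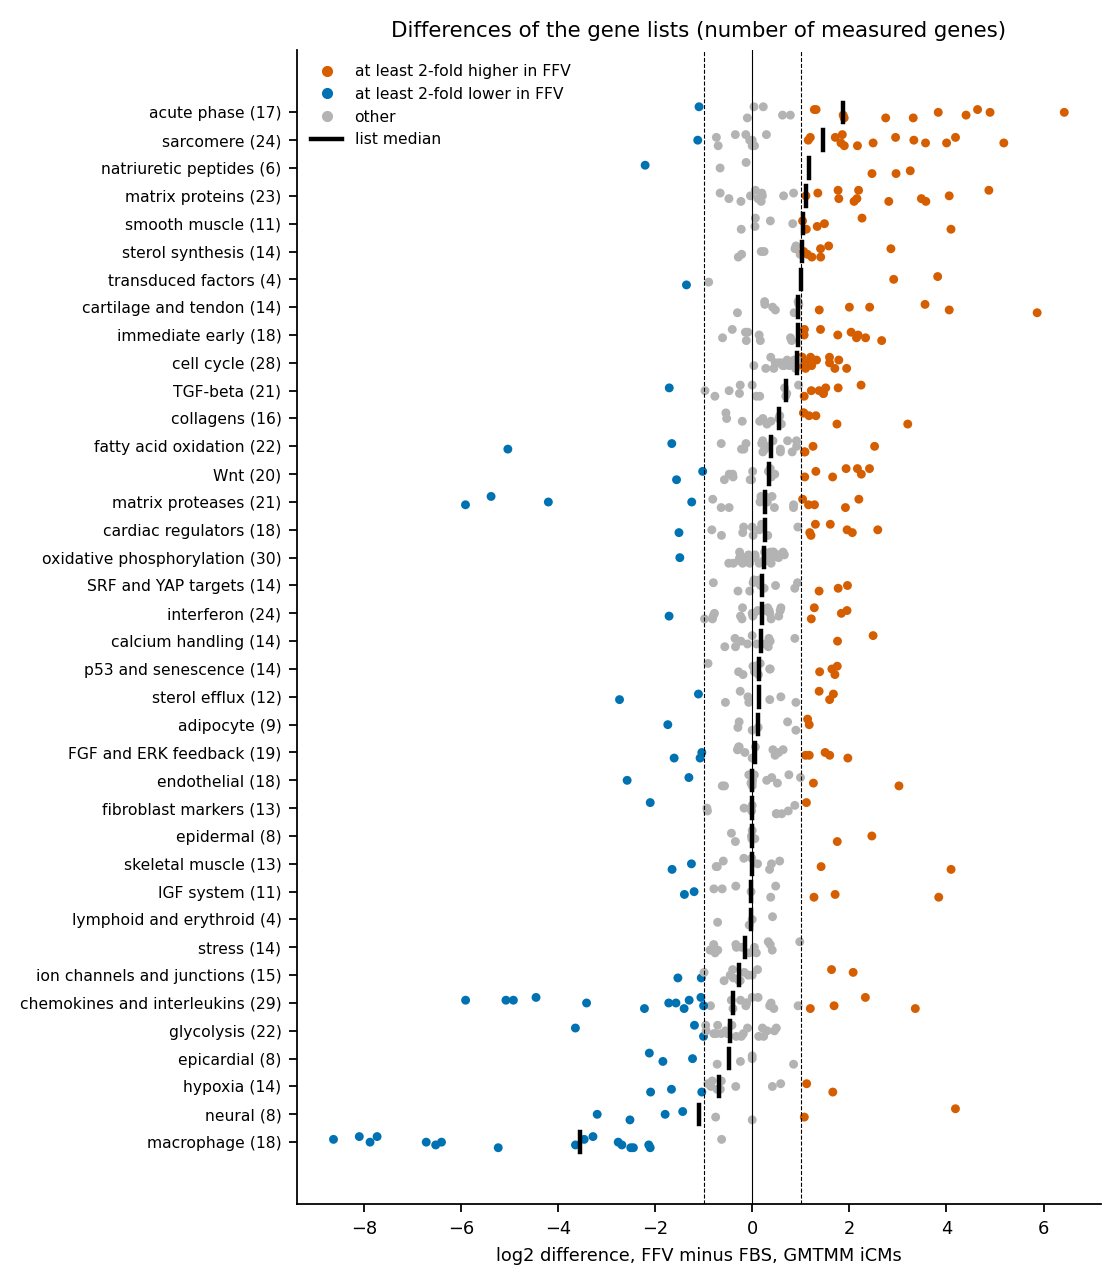
Log2 difference, FFV minus FBS, of every measured member (points) and the median (black bars) of 38 gene lists in GMTMM iCMs, with orange for genes at least 2-fold higher in FFV and blue for genes at least 2-fold lower. Dashed lines mark a 2-fold difference, and lists run from the highest median at the top (acute phase, 1.87) to the lowest at the bottom (macrophage, −3.55).

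The same media had been used for GMT iCMs at 2 and 4 weeks, with no sample in common. At 2 weeks 444 genes were higher in FFV (2.9%) and 455 lower (2.97%), 5.88% in all. At 4 weeks 642 were higher (4.04%) and 717 lower (4.52%), 8.56% in all, and the share in GMTMM iCMs was 14.4%. Of the 1367 genes higher in GMTMM iCMs, 111 were also higher at 2 weeks, which is 8.12% of these and 25% of the 444, and 135 were higher at 4 weeks, 9.88% of these and 21.0% of the 642. In the opposite direction, 71 of the 1367 were lower at 2 weeks (5.19%) and 119 at 4 weeks (8.71%). Of the 874 lower genes, 85 were lower at 2 weeks (9.73% of these and 18.7% of the 455) and 198 at 4 weeks (22.7% of these and 27.6% of the 717). In the opposite direction, 32 of the 874 were higher at 2 weeks (3.66%) and 39 at 4 weeks (4.46%). Over all genes the share lower at 4 weeks was 4.52%. Higher in all 3 pairs were 61 genes, which is 28.5% of the 214 higher at both GMT times. Lower in all 3 were 72, which is 30% of the 240 lower at both GMT times. Over all genes, 8.8% were higher and 5.63% lower in GMTMM iCMs.

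The macrophage list was negative in all 3 pairs, with medians of −3.55 in GMTMM iCMs, −0.83 in GMT iCMs at 2 weeks and −2.70 at 4 weeks. C1qa had 2.32 against 544 in FFV against FBS in GMTMM iCMs, 5.78 against 52.3 in GMT iCMs at 2 weeks and 3.35 against 398 at 4 weeks. Glycolysis was negative in all 3 as well (−0.46, −0.42 and −0.58), and Slc16a3 differed by −3.64, −1.80 and −2.92. Thy1 was lower in each, by −2.10, −2.72 and −1.87. Myl1 was higher in each, by 4.10, 2.56 and 2.52.

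Other lists stood apart between the pairs as values. The cell cycle list had a median of 0.91 in GMTMM iCMs, −0.12 in GMT iCMs at 2 weeks and −0.72 at 4 weeks. The acute phase list had 1.87, 0.23 and 0.10 in the same order, and the sterol synthesis list 1.02, 0.11 and −0.36. Sarcomere medians were 1.45, 0.32 and 0.60. The base from which the sarcomere genes started was not the same: Myl7 had 198 against 5.46 in FFV against FBS in GMTMM iCMs, and 33337 against 26621 in GMT iCMs at 2 weeks. GMT iCMs had been sorted for the cardiac reporter, and the 2 kinds of cells lie in different array series, so sort, factors, source cells and array series cannot be told apart.

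Whether the response to FFV differs between GMTMM and GMT iCMs was tested gene by gene with limma on the 8 iCM arrays, as an interaction of medium with GMTMM with 2 residual degrees of freedom. The spread comes from the 2 times of the GMT cells and is assumed to hold for the GMTMM pair, so the SE and p hold no spread between GMTMM cultures. Of 15819 genes 1 passed an adjusted p of 0.05 (0.00632%), while 4078 had an unadjusted p under 0.05. It was Scg2, secretogranin II, a protein of secretory granules in neurons and endocrine cells. Scg2 had 68.2 in FFV and 3.75 in FBS in GMTMM iCMs, 199.8 in FFV and 2126 in FBS in GMT iCMs at 2 weeks, and 203 in FFV and 2309 in FBS at 4 weeks. As values it was higher in FFV in the GMTMM pair and lower in FFV in both GMT pairs, with a fitted interaction of 7.65 ± 0.19 on the log2 scale (SE) with a limma adjusted p of 0.0229. Without the SF (serum-free) arrays no gene passed, and 3945 had an unadjusted p under 0.05. The limma adjusted p was 0.0600 for Lcn2 (interaction 6.02 ± 0.24 SE) and 0.0600 for Myl7 (interaction 4.70 ± 0.24 SE), above the threshold, and 0.346 for C1qb. With a pseudocount of 10 in place of the floor 1034 genes passed, and with normexp values 1505, so the count depends on how dim values are treated.

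**Figure D5:**
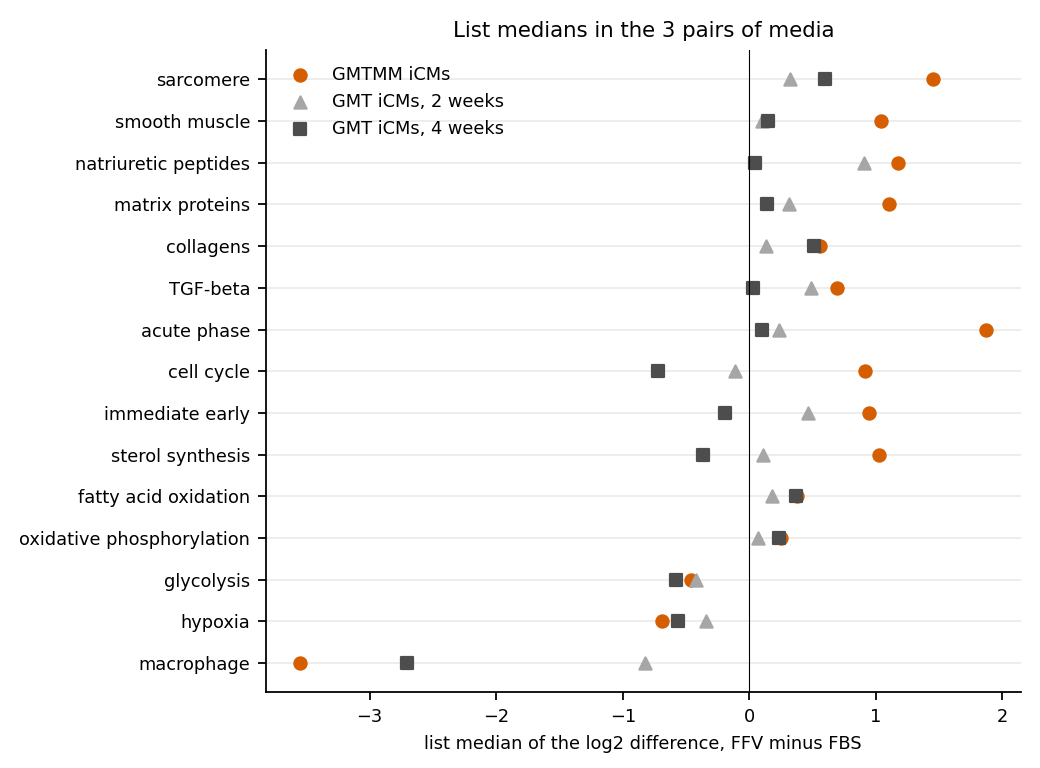
Median log2 difference, FFV minus FBS, of 15 gene lists in GMTMM iCMs (circles) and in GMT iCMs at 2 weeks (triangles) and 4 weeks (squares), 1 array per medium in each pair. The macrophage, glycolysis and hypoxia medians are negative in all 3 pairs, and the acute phase median is 1.87 in GMTMM iCMs against 0.23 and 0.10 in GMT iCMs.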

How the data were processed

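RNA of 13 mouse samples was hybridised to single-colour Cy5 arrays, after amplification as amino allyl aRNA per the labels' protocols. The authors' deposited table of processed intensity values was used. Its scale is not stated and was inferred: the values of an array are linear in the scanner's spot median (r 1), 0 near the level of the blank spots, with a median of 25, and a probe near the blanks has no value. Values were taken as log2, with those missing or below it set to 1.03, the higher of the 2 arrays' lowest values. A gene was called when it was at least 2-fold apart and the higher array had a value, and a fold against a missing value is given as at least. A single symbol named 16631 of 23473 probes, 6842 were unnamed, 3947 symbols were brought up to date, 12622 needed no change and 62 could not be matched. For the 229 of 16390 genes with several probes the brightest was used. Of 38 other probes of called genes 30 differed in the same direction and none by 2-fold in the opposite one. With 1 array a side no test of the pair exists, and the number of arrays limits the precision.

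The interaction of medium with GMTMM was fitted with limma 3.58.1 in R 4.3.3 on 8 iCM arrays (context, FFV, SF and the interaction, with a mean-variance trend, two-sided), with Benjamini and Hochberg adjustment over 15819 genes. Tested on simulated data of 15854 genes with 100 changed genes of each size, it recovered 71.0% of 4-fold, 97.0% of 16-fold and 100.0% of 64-fold interactions, with 17 false among 285 calls. The simulated scatter was normal and independent between arrays, so these shares need not hold for the real arrays. In the real fit Lcn2, with an interaction of 6.02 on the log2 scale, did not pass the threshold. Alternatives were quantile normalisation, normexp, surround subtraction, other filters, a pseudocount, all probes of a gene, no trend and no SF arrays. Python 3.11.15 with pandas 2.3.3 and numpy 2.4.6 was used for the rest.

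Named genes are the 10 highest and 10 lowest called genes, up to 5 called members of each list with the largest difference, a panel, and genes past the interaction threshold. Other list members named in the text were chosen after their values were seen. The 38 lists held 650 genes, 596 of them measured, and the members and lists were chosen with earlier results of these data known.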

Additional observations from a re-analysis of the deposited data

Results flagged for a closer look

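Scg2 stood out for its difference between FFV and FBS in GMTMM iCMs against that in GMT iCMs, the single gene to pass the threshold in the limma fit of medium by GMTMM. The fitted interaction was 7.65 ± 0.19 on the log2 scale (SE), with a limma adjusted p of 0.0229, from 1 array a group and 2 residual degrees of freedom. The spread is that between the GMT times, so it holds none between GMTMM cultures, and the difference has no replicate check. Scg2 had 68.2 in FFV and 3.75 in FBS in GMTMM iCMs, 2620.3 in MT iCMs in FFV and 1.26 in TTFs. Over the alternatives the adjusted p lay between 0.000125 and 0.123. It was 0.000125 with normexp values and 0.123 without the SF arrays, which ended the call.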

How the results depend on the processing

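The counts of genes at least 2-fold apart depended on how dim genes were treated. In place of 1367 higher and 874 lower genes, normexp with an offset of 50 gave 278 and 210, a pseudocount of 10 gave 668 and 394, subtraction of the local surround gave 2306 and 514, and a higher array of at least 25, chosen after seeing the data, gave 856 and 432. Of the main calls 21.8%, 47.4%, 59.1% and 57.5% were kept in this order, against 89.2% with quantile normalisation, 92.7% with both arrays above background and 99.3% with the mean of all probes. The sarcomere median was 0.23 with normexp, 0.56 with the pseudocount and 0.64 with the surround subtracted, and the natriuretic peptide median 0.14, 0.34 and 0.38. The macrophage median was −1.94, −2.61 and −2.74 in the same order, and the acute phase median 0.66 with normexp and 1.26 with the pseudocount. Surround subtraction gave medians of 1.82 for transduced factors, 1.91 for matrix proteins and 0.66 for fibroblast markers. The interaction test called 1505 genes with normexp, 1034 with the pseudocount and 0 without the SF arrays, where 1 residual degree of freedom remains. An offset and a pseudocount shrink differences of dim genes by construction, and the cause of the shift under surround subtraction was not tested. Of the 168 genes named by the fixed rule, no called one changed direction under any alternative run. Other genes named in the text were not in this check. Of all called genes, 7 were called in the opposite direction with the surround subtracted. Another scanner gain was not run, since the files give 1 spot median per probe. No paired analysis was possible because the labels give no replicate numbers and each group has 1 array. Leaving out 1 GMT time would leave no residual degree of freedom. Signal over background limits values of a few units, and 1 array a side leaves the spread between cultures unknown.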

Other observations

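Outside the gene lists, and chosen after their values were seen, several groups of genes stood far apart between the media. Granzymes of the cluster that includes Gzmc, Gzmd and Gzme, proteases known from lymphocytes and from the placenta, were lower in FFV: Gzme had 56.3 in FFV, 1380.3 in FBS and 627 in TTFs, Gzmd had 10.6 in FFV, 406 in FBS and 113 in TTFs, and Gzmc had 7.27 in FFV, 268 in FBS and 78.9 in TTFs. The prolactin family genes Prl2c3 and Prl2c5, placental and growth-related hormones in mouse, had 34.8 in FFV, 1648 in FBS and 558 in TTFs for Prl2c3 and 14.9 in FFV, 769 in FBS and 236 in TTFs for Prl2c5. Both families hold close copies, so the values of their members are uncertain. The skin barrier genes Lce1h and Crct1 had 4.92 in FFV, 308 in FBS and 13.3 in TTFs for Lce1h and 6.67 in FFV, 226 in FBS and 6.72 in TTFs for Crct1, so both were above TTFs in FBS and at or below TTFs in FFV. The peptide hormone gene Cck had 114 in FFV, 2145 in FBS and 939 in TTFs.

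On the higher side and outside the lists, Agtr1a, the angiotensin II receptor, had 152 in FFV, 7.45 in FBS and 178 in TTFs, Lgr5, a receptor of R-spondins, had 647 in FFV, 70.9 in FBS and 1051 in TTFs, and Itgbl1 had 745 in FFV, 60.2 in FBS and 787 in TTFs. In these 3 genes the FFV cells lay near TTFs and the FBS cells far below. Sparcl1, a matrix protein, had 698 in FFV, 32.0 in FBS and 13.5 in TTFs, Gpx3, a secreted glutathione peroxidase, had 3303 in FFV, 404 in FBS and 739 in TTFs, and Lbp, the lipopolysaccharide-binding protein, had 362 in FFV, 36.5 in FBS and 25.1 in TTFs, all above TTFs in FFV. Wnt16 was the opposite of GMT iCMs as a value: it had 152 in FFV and 11.1 in FBS in GMTMM iCMs, a difference of 3.77, and differences of −3.18 at 2 weeks and −2.62 at 4 weeks in GMT iCMs. The interaction of Wnt16 was 6.67 ± 0.47 (SE), with a limma adjusted p of 0.0600, which missed the threshold.

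Of the 61 genes higher in FFV in all 3 pairs, Galnt9, an enzyme of mucin-type glycosylation, differed by 4.42, 3.52 and 3.92 on the log2 scale in GMTMM iCMs and in GMT iCMs at 2 and 4 weeks. In the same order Angptl7, a secreted angiopoietin-like protein, differed by 4.38, 2.98 and 2.67, and Dpep1, a membrane dipeptidase, by 4.48, 1.84 and 2.30. Of the 72 genes lower in all 3, some are no macrophage markers: Greb1, known as an oestrogen-responsive gene, differed by −3.24, −2.84 and −3.04, and Clu, the secreted chaperone clusterin, by −1.76, −1.78 and −2.15. These genes were also chosen after their values were seen.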
